A study of Rattus norvegicus with 21 samples.

Results

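The proteasome is the main ATP-dependent protease of the cytosol and nucleus of eukaryotic cells, and its genes were followed here across areas and animals of an epileptic rat hippocampus. The genes were chosen by name: every probe whose annotated symbol starts with Psma, Psmb, Psmc, Psmd, Psme, Psmf or Psmg, without the immunoproteasome subunits Psmb8, Psmb9 and Psmb10. This gave 40 genes with 1 probe each, of 13317 genes named on 21803 measured probes. Of the 40, 35 passed the filter on dim probes (at least 10 arrays with a detection p below 0.01) and were tested among 8211 features. No measured level entered the naming rule for the 40 genes, but the filter that kept 35 used detection on these arrays. The rule was set with earlier results of these data known.

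The proteasome core is a barrel of stacked rings, with outer rings of alpha subunits that gate the entrance and inner rings of beta subunits, some of which hold the protease sites. A regulatory cap with a ring of ATPases unfolds proteins tagged with ubiquitin and feeds them into the core, while its other subunits recognise and remove the tag. Assembly needs dedicated chaperones that do not stay in the finished particle, and neurons use the proteasome to turn over synaptic proteins.

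The samples were pieces of the dentate gyrus, the granule cell region of the hippocampus, from brain slices of Wistar rats injected with pilocarpine, a muscarinic agonist that provokes lasting seizures. Recordings in the slice had marked each piece as an area with fast ripples (FR), very fast field oscillations seen in epileptic tissue, or as an area without them (nonFR). There were 10 FR arrays and 11 nonFR arrays, from 11 slices, and both areas were measured in 10 of these. The 6 animals carry the labels B9, P91, B10, B3, B1 and B13. All animals of both groups received pilocarpine, so every comparison is among areas and rats treated alike, and rats without it are not analysed here. B1 and B13 gave 2 arrays each, P91, B3 and B10 gave 4 each, and B9 gave 5. The labels gave no sex, age or chip, so chip and animal cannot be told apart.

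RNA was hybridised to Illumina bead arrays, and levels are given as log2 of the background-corrected, quantile-normalised probe intensity, so that a difference of 1 is a doubling. Levels of different probes are not on a common scale and are compared here only between samples. The mean signal per array was highest, at 369.8, in the FR area of slice 3 of B9 and lowest, at 84.19, in the nonFR area of slice 2 of B10. That dimmest array also had the fewest detected probes, 5648. Among granule cell markers, Calb1 and C1ql2 were detected on all 21 arrays and Prox1 on 15, while the probe of Tdo2 was detected on none. Markers of other cells were also present, as the probes of Gfap, Gad1, Mog and C1qa were detected on every array. In bulk tissue of this kind, fewer cells of a type and less RNA per cell cannot be told apart.

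Of the 40 genes, 32 were detected on all 21 arrays. Psmd13 was detected on 20 arrays, Psme2 on 18 and Psmd8 on 14. The 5 genes that did not pass the filter were the alpha subunit Psma3, detected on 5 arrays, the cap ATPase Psmc6, detected on 4, and 3 genes detected on no array. These last were Psma8, an alpha subunit of the testis, Psmb11, a beta subunit of the thymus, and Psmc3ip, which shares the name stem but encodes a meiotic recombination factor and no subunit. Psmd10, Psmd14, Psme3, Psmf1, Psmg3 and Psmg4 are not analysed here.

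The first comparison asked whether the proteasome genes differ between areas with and without fast ripples. None was called: 0 of 35 had an adjusted p below 0.05 in limma with the animal as a block, where 0% of all features did, and the smallest adjusted p was 0.9999. Without adjustment, 0 of 35 had a p below 0.05, against 29 of 8211 features or 0.353%. The smallest unadjusted p was 0.275, for Psme1. The fitted difference, FR minus nonFR, was above 0 for 24 of 35 genes, while 52.3% of all features lay above 0. Its median over the genes was 0.05 log2, and over all features 0.0037. The lowest difference was -0.16 for Psmd13 and the highest 0.23 for Psma2. All 35 of the 95% intervals held 0 and all lay within 1 log2 unit of it, and 23 lay within 0.5. The fit takes the slices of one animal as separate, so these intervals do not set a limit for the spread over 6 animals. The SD of the differences over animals reached 0.87 log2, for Psme4. No gene had the same sign in all 6 animals, as 1.28% of all features had.

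**Figure D1:**
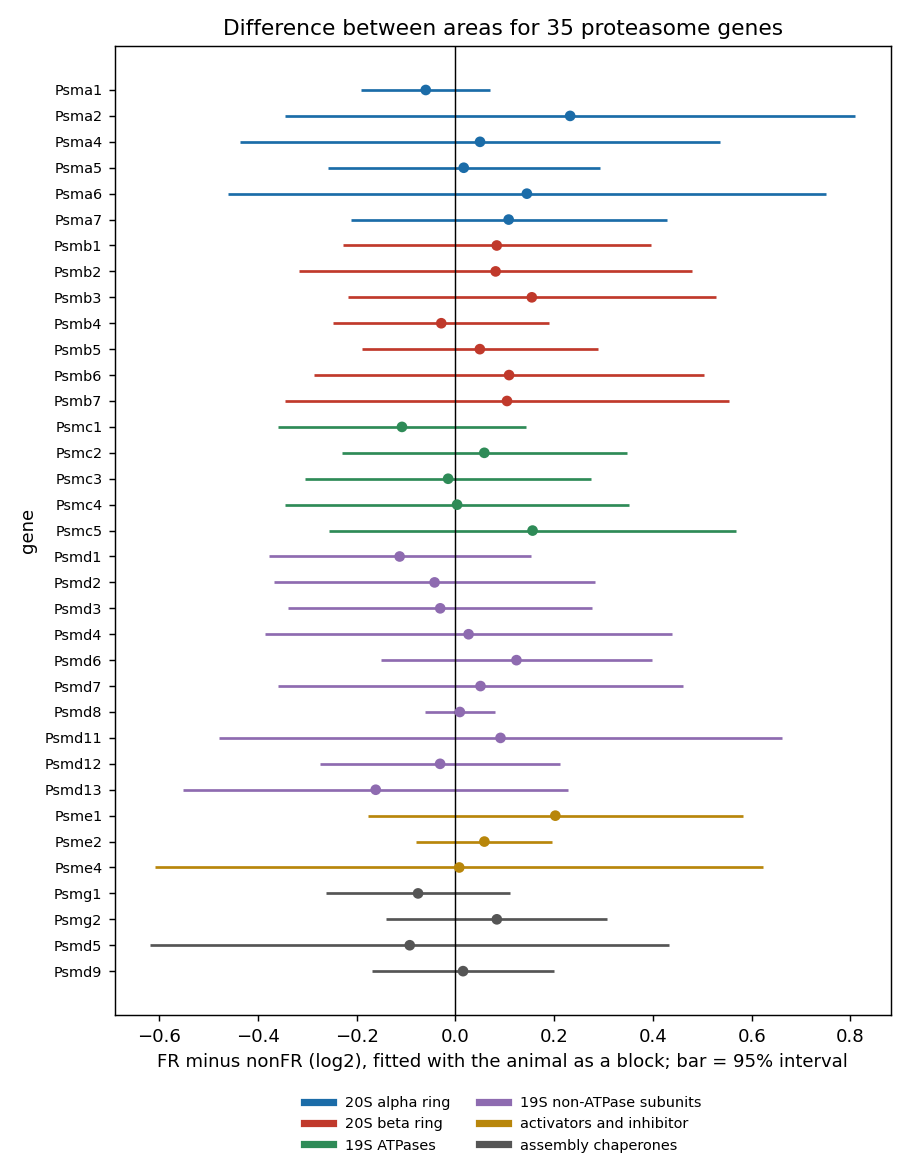
Fitted FR minus nonFR difference in log2 units (horizontal axis) for each of the 35 tested proteasome genes (vertical axis), coloured by structural group. Points are the fitted differences with the animal as a block and bars their 95% intervals, all of which cross 0 and stay within 1 log2 unit.

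The excess of genes above 0 rested on B10. In that animal 32 of 35 genes were higher in FR areas, against 52.9% of all features, and without B10 only 11 of 35 were above 0, with a median of -0.027. With arrays weighted by their quality the count was also 11. Within B10 the shift came from slice 2, where 30 of 35 genes were higher in the FR area with a median of 0.59 log2, while the median over all features of that slice was 0.029. In slice 1 of B10 the count was 19 of 35, with a median of 0.036. The nonFR array of slice 2 is the one with the fewest detected probes and the lowest mean signal, 84.19, against 101.3 for the FR array of the slice. The part of this dimness in the result was not tested beyond leaving the array out, which left 16 of 35 genes above 0. The FR array of slice 2 also stood at an end for several genes. Among the 35 it was the highest of all arrays for Psmb2 (11.53), Psma6 (11.11), Psmc2 (10.93) and others, but the lowest for Psmd2 (10.25). Outside the 35 it was the lowest for Usp14 (9.93) and Zfand5 (6.17). No run left out this FR array alone, so its part in the shift was not tested.

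**Figure D2:**
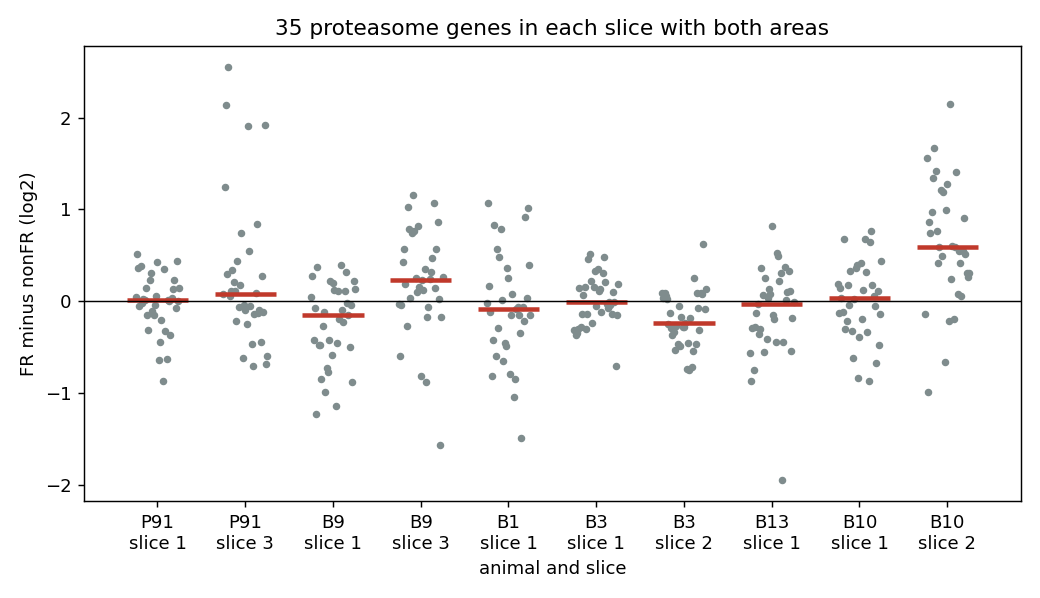
FR minus nonFR difference in log2 units (vertical axis) of the 35 tested proteasome genes in each of the 10 slices with both areas (horizontal axis). Grey points are genes and red bars their medians, which lie between -0.24 and 0.23 in every slice except slice 2 of B10, at 0.59.

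The other slices had no common direction. Genes higher in the FR area numbered 19 of 35 in both slices of P91, 12 and 25 in the slices of B9, 14 in B1, 16 and 11 in the slices of B3 and 16 in B13. Single genes moved far within single slices. In slice 3 of P91, the alpha subunits Psma6 and Psma4 were higher in the FR area by 2.56 and 2.14 log2, the activator Psme4 by 1.92 and the cap subunit Psmd11 by 1.91. In slice 2 of B10, Psmd11 was higher by 2.15 and the beta subunit Psmb2 by 1.67, but Psma4 had -0.99. The other slice of each animal gave other values: in slice 1 of P91 the differences of Psma6 and Psma4 were 0.38 and 0.36 and that of Psmd11 was -0.44, and in slice 1 of B10 those of Psmd11 and Psmb2 were -0.19 and -0.22.

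The second comparison asked whether animals differ in these genes. Here 10 of 35 genes were called by the F test of limma between animals with the area in the fit, or 28.6%, while 13.4% of all features were called. Without adjustment, 21 of the 35 had a p below 0.05, or 60%, and of all features 33.3%. The called genes were Psma1 of the alpha ring, Psmb1, Psmb3 and Psmb7 of the beta ring, the ATPases Psmc1 and Psmc3, the cap subunits Psmd3 and Psmd4, and the chaperones Psmd5 and Psmd9. B9 was the highest animal for 6 of these 10, and B13 the lowest for 5. Of all features, called or not, 20% were highest in B9 and 23.7% lowest in B13. The calls rested on which animals were compared, as 0 of the 35 were called by limma without B9, with 12 at an unadjusted p below 0.05, and 1, Psmd3, without B3. Without B9 2.28% of all features were called, and without B3 4.37%. Without P91 6 of the 35 were called, and 7.12% of all features. Within the FR arrays alone limma called 0 of 35 and 0 of all features, with 7 of 35 and 14.6% of all features at an unadjusted p below 0.05. Within the nonFR arrays alone it called 0 of 35 and 0.0609% of all features, with 9 of 35 and 16.3% of all features at an unadjusted p below 0.05.

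Over the 35 genes, the animals took different places. B9 had the highest mean level for 14 genes, B10 for 9, P91 for 7, B13 for 4, B3 for 1 and B1 for none. The lowest level fell in B13 for 15 genes, in B1 for 11, in P91 for 5, in B3 for 2 and in B9 and B10 for 1 each. Of all features, 20% were highest in B9, 17% in B10, 18.5% in P91, 21% in B13, 8.71% in B3 and 14.9% in B1. The lowest level fell in B13 for 23.7% of all features, in B1 for 15.3%, in P91 for 20.2% and in B3 for 10.1%. For B9 that share was 15.2% and for B10 15.5%. In B9, 30 of 35 genes lay above their own mean over animals, and in B1 9 of 35, while between 44.5% and 48.1% of all features lay above theirs in each animal. The mean deviation from each gene's own mean was 0.25 log2 in B9, 0.15 in B10, 0.062 in P91, -0.11 in B3, -0.17 in B1 and -0.19 in B13. The median SD over animals was 0.287 log2 for the 35 genes and 0.26 for all features.

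**Figure D3:**
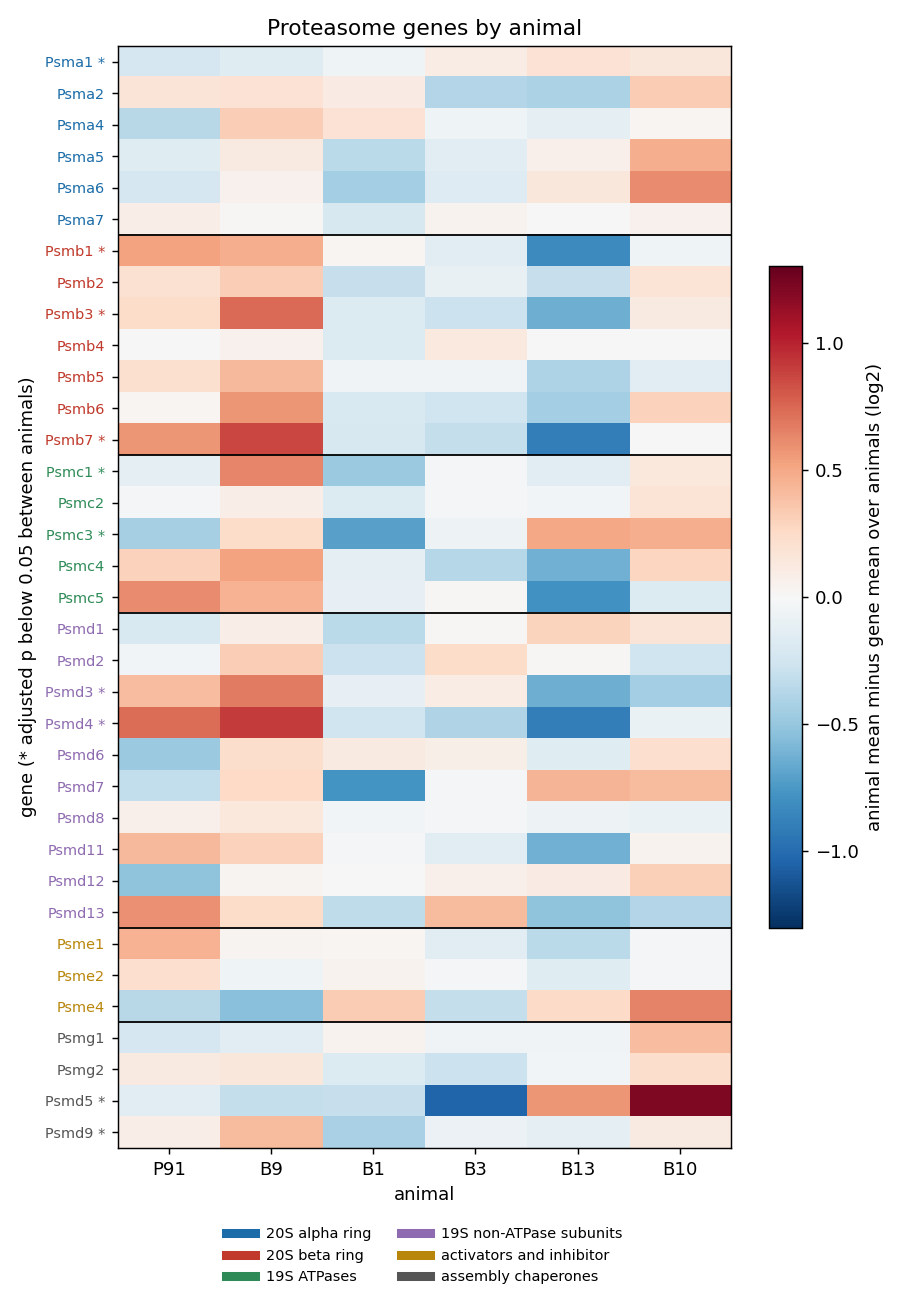
Mean level of each of the 35 tested proteasome genes (rows, coloured by structural group) in each of the 6 animals (columns), as the deviation in log2 units from the gene's own mean over animals. Red is above that mean and blue below it, and an asterisk marks the 10 genes called between animals; B9 is red for 30 of 35 genes and B13 is blue for most of the beta ring.

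Array brightness also differed between animals and stands beside these results. Mean signal averaged 263.9 in B9, 254.2 in P91, 208.4 in B1, 186.4 in B13, 168.7 in B3 and 103.9 in B10. B10, the dimmest animal, lay above the mean for 23 of 35 genes, and P91, nearly as bright as B9, for 20. The part of brightness in the differences between animals was not tested.

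Cell markers moved between the animals as well. All 8 microglial probes were kept, and their mean deviation was 0.86 log2 in P91, 0.35 in B9, -0.10 in B3, -0.21 in B13, -0.31 in B1 and -0.59 in B10. Granule cell markers, of which 6 of 7 probes were kept, lay between 0.34 in B3 and -0.44 in B10. Astrocyte markers ranged from 0.32 in P91 to -0.42 in B10, with 7 of 7 probes kept. Oligodendrocyte markers, 5 of 7 probes kept, ran between 0.32 in B10 and -0.32 in B3, and interneuron markers, 5 of 6 kept, between 0.14 in P91 and -0.22 in B1. Endothelial markers, 4 of 6 kept with Cdh5 and Tek detected nowhere, lay at 0.332 in P91, 0.327 in B9, 0.203 in B3, -0.013 in B1, -0.323 in B13 and -0.526 in B10. The ends of this list were P91 and B10, and B10 had a mean deviation of 0.16 for the called proteasome genes. B9 and B13, most often at the ends for those genes, were second highest and second lowest here. For granule cell markers B9 and B13 lay at 0.10 and -0.10, and for interneuron markers at -0.071 and 0.13. For astrocyte markers they lay at -0.30 and 0.15, and for oligodendrocyte markers at -0.25 and -0.23. Between areas, the summed level of the microglial probes on the linear scale ran from 674 to 5570 in FR arrays and from 726 to 4830 in nonFR arrays. That of the granule cell probes ran from 604 to 4850 in FR arrays and from 709 to 6790 in nonFR arrays, so the ranges of the areas overlapped for both lists. Fitted differences were above 0 for 5 of 5 oligodendrocyte, 7 of 8 microglial and 4 of 4 endothelial markers, with medians of 0.338, 0.17 and 0.085. For astrocyte, interneuron and granule cell markers 4 of 7, 3 of 5 and 2 of 6 were above 0, with medians of 0.017, 0.109 and -0.041. No marker was called between areas, and 52.3% of all features lay above 0. The part of cell makeup in the levels of proteasome genes was not tested.

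The alpha ring, whose subunits form the gate of the core, had 6 tested members. Of these, 5 had fitted differences above 0 and 1 below, with a median of 0.079 log2, none called. Psma1 had the lowest p between areas in the ring, with levels from 6.06 to 6.49 and a median of 6.18 in FR arrays and from 5.99 to 6.75 with a median of 6.22 in nonFR arrays. The ranges overlapped, and the difference was -0.060 (SE 0.061, p = 0.342, two-sided in limma). Between animals Psma1 was called, with an adjusted p of 0.0436 in limma over 21 arrays, but the span was small, 6.46 in B13 against 6.06 in P91, or 1.33-fold. The call was lost with median centring, where the span was 0.12 log2 against 0.41, with no detection filter or one requiring all arrays, and without P91, B9, B3, B10 or the dimmest array. Its animals ran the other way from most called genes, since B13 was highest and B9, at 6.12, was next to lowest. Psma6 varied most over animals in the ring, with means between 10.61 in B10 and 9.55 in B1. It was not called (adjusted p = 0.555 between animals in limma), and the areas of single animals lay as far apart. In P91 the FR arrays had 10.53 and 10.49 and the nonFR arrays 10.15 and 7.93. Its FR minus nonFR difference was 0.14 (SE 0.28), and without P91 it was -0.17.

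The beta ring carries the protease sites, and its 7 tested genes had the highest median pairwise correlation of the 6 structural groups. That correlation over the 21 arrays was 0.62, and 0.45 after the animal and area means were removed, while over the 35 genes it was 0.21 and 0.16 and over all features -0.0065 and -0.0039. These are descriptions of arrays that share animals and slices. Between areas 6 of the 7 genes had differences above 0, with a median of 0.084, none called. Without the dimmest array that median was -0.0011.

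Of the catalytic subunits, Psmb7, which cuts after basic residues, varied most and was called between animals. In B9 its levels were 10.63 and 11.36 in FR arrays and 11.36, 11.12 and 10.59 in nonFR arrays, and in P91 10.88 and 10.68 in FR arrays and 10.57 and 10.74 in nonFR arrays. In B13 it had 9.38 in the FR array and 9.12 in the nonFR array. The arrays of B9 and B13 did not overlap, and the means of 11.01 and 9.25 gave a 3.39-fold span (adjusted p = 0.0348 between the 6 animals, limma). The call was lost without P91, B9, B3 or B13 and with no detection filter, and without B13 the span was 1.18 log2 against 1.76. B1 had 9.94 in the FR array and 9.93 in the nonFR array, and B3 had 10.33 and 9.37 in FR arrays and 9.82 and 9.83 in nonFR arrays. B10 spanned nearly the whole range, with 10.45 and 10.12 in FR arrays and 11.07 and 8.91 in nonFR arrays. Between areas the median was 10.39 in FR arrays and 10.57 in nonFR arrays, and the fitted difference was 0.10 (SE 0.21, p = 0.628, limma). It was above 0 in 5 of 6 animals, and -0.056 without the dimmest array.

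The promoter of Psmb7 is shown because the gene had the widest span of the core subunits. It lies at chr3:42827421-42827720 on the minus strand, from 250 bases before to 50 after the start of the gene in RefSeq for GRCr8, and the capitals mark its 2 CCAAT matches, the first on the opposite strand and so read as ATTGG.
Psmb7 promoter: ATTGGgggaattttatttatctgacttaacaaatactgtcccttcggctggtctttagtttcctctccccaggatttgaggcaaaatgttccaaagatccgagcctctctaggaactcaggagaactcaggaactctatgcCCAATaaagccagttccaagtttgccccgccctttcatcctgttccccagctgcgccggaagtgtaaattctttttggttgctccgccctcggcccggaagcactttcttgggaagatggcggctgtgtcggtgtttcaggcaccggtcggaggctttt

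The 2 other catalytic subunits were not called. Psmb5, which cuts after hydrophobic residues and is the site that proteasome inhibitors used in medicine hit first, had levels from 10.26 to 11.20 with a median of 10.69 in FR arrays and from 10.18 to 11.23 with a median of 10.69 in nonFR arrays. Its difference between areas was 0.050 (SE 0.11). Over animals it averaged 11.05 in B9 and 10.23 in B13, with an adjusted p of 0.0764 between animals in limma. With median centring Psmb5 was called between animals. Psmb6, which cuts after acidic residues, ran from 9.35 to 11.40 with a median of 10.21 in FR arrays and from 9.49 to 11.03 with a median of 10.01 in nonFR arrays. Its difference was 0.11 (SE 0.19), and its animal means ran between 10.65 in B9 and 9.63 in B13 (adjusted p = 0.141, limma). For all 3 catalytic genes B9 was the highest animal and B13 the lowest.

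Psmb1 and Psmb3, structural subunits of the same ring without a protease site, were called between animals. Psmb1 averaged 11.29 in P91, 11.25 in B9, 10.80 in B1, 10.71 in B10, 10.64 in B3 and 9.94 in B13, a 2.55-fold span (adjusted p = 0.0263, limma). The arrays of B13, 9.93 and 9.96, lay below the arrays of every other animal, of which the nearest was the dim nonFR array of B10 at 9.98. Psmb1 was not called without B13, P91, B9 or B3 or with no detection filter, and without B13 its span was 0.66 log2 against 1.35. Psmb3 averaged 10.98 in B9 and 9.61 in B13, a 2.57-fold span (adjusted p = 0.0478, limma), and its call was lost without the same 4 animals, with an offset of 50 and with no detection filter. Psmb3 also had the lowest p between areas in the ring. It ran from 9.46 to 11.59 with a median of 10.35 in FR arrays and from 9.75 to 11.32 with a median of 10.18 in nonFR arrays, overlapping ranges with a difference of 0.15 (SE 0.17, p = 0.391, limma). Psmb2 and Psmb4, the remaining tested subunits of the ring, were not called, and the animal means of Psmb4 stayed within 0.30 log2 of each other.

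**Figure D4:**
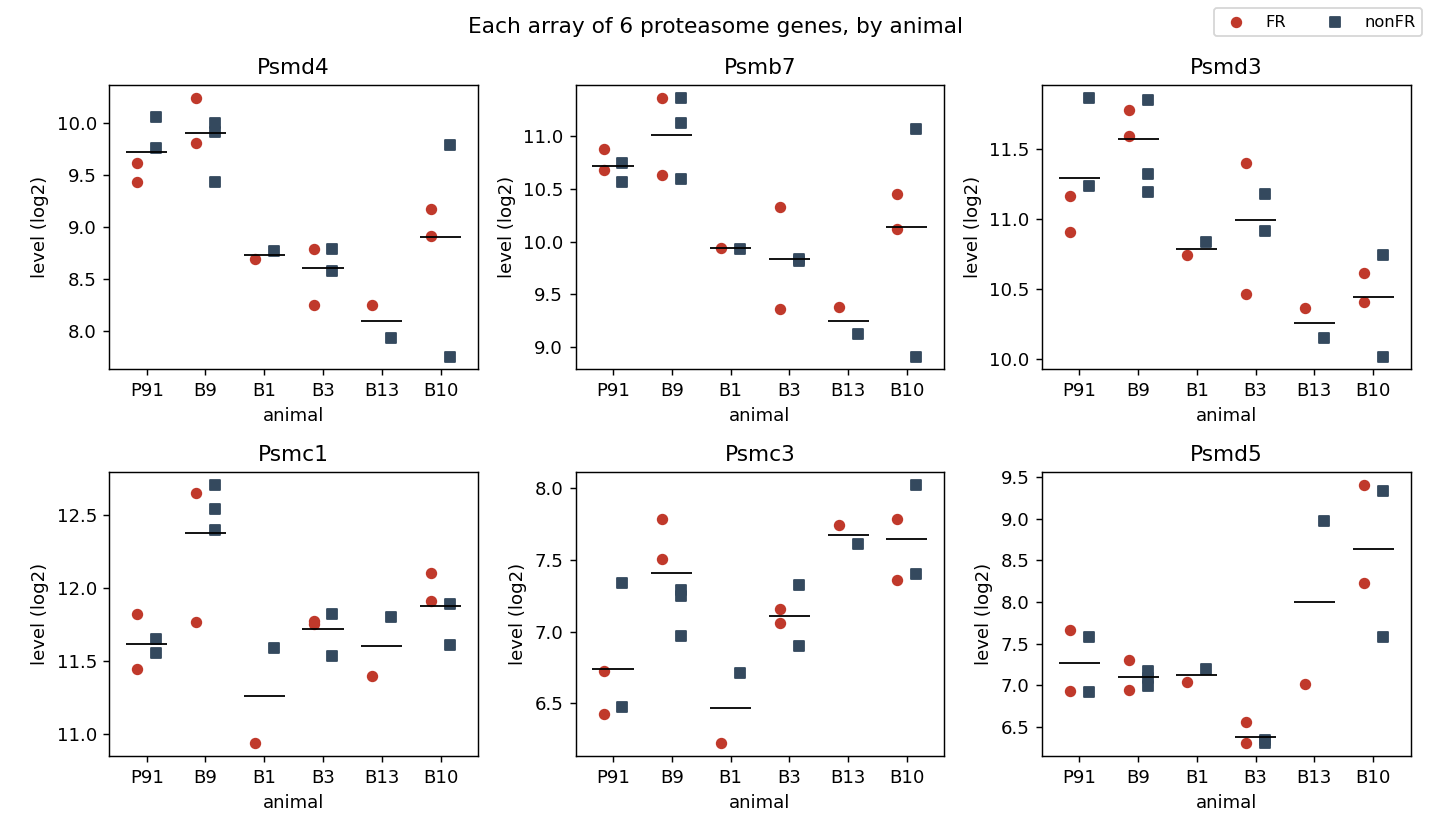
Level in log2 units (vertical axes, one scale per gene) of 6 proteasome genes called between animals, for each array of the 6 animals (horizontal axes). Red circles are FR arrays, dark squares nonFR arrays and black lines the animal means; for Psmd4, every array of P91 and B9 lies at or above 9.43, and every array of B1, B3 and B13 at or below 8.79.

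The ATPases of the cap unfold the substrate and open the gate of the core. Of 5 tested, 3 had differences between areas above 0 and 2 below, with a median of 0.0034 log2, none called. Psmc1 had the lowest p of the 5 in both comparisons. Between animals it was called, with means of 12.38 in B9, 11.88 in B10, 11.72 in B3, 11.62 in P91, 11.60 in B13 and 11.26 in B1, a 2.17-fold span (adjusted p = 0.0207, limma). The call was lost without B9 or B3, and without B9 the span was 0.62 log2 against 1.12. B9 stood apart in most of its arrays, with 11.76 and 12.65 in FR arrays and 12.54, 12.71 and 12.40 in nonFR arrays, while B1 had 10.93 in the FR array and 11.59 in the nonFR array. Between areas Psmc1 ran from 10.93 to 12.65 with a median of 11.77 in FR arrays and from 11.53 to 12.71 with a median of 11.80 in nonFR arrays. The ranges overlapped, and the difference was -0.11 (SE 0.12, p = 0.373, limma).

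Psmc3, another of the ATPases, was called between animals in a different order. It averaged 7.68 in B13, 7.64 in B10, 7.41 in B9, 7.11 in B3, 6.74 in P91 and 6.46 in B1, a 2.32-fold span (adjusted p = 0.023, limma). So B13, the lowest animal for 5 of the called genes, was the highest here. The call of Psmc3 was lost without B9 or B3 and with no detection filter. Psmc5 had the largest SD over animals among the ATPases, with means between 10.07 in P91 and 8.68 in B13, but was not called (adjusted p = 0.0862, limma). With median centring, and without B10 or the dimmest array, Psmc5 was called. Its arrays in B13 were 9.09 in the FR area and 8.27 in the nonFR area, and in B10 9.55 and 9.48 in FR arrays and 9.93 and 8.20 in nonFR arrays. The fitted difference between areas was 0.16 (SE 0.19), and the medians were 9.50 in FR arrays and 9.65 in nonFR arrays.

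Psmc2 was the only one of the 35 with an unadjusted p below 0.05 for the interaction of area and animal, which asks whether the difference between areas itself differs between animals. Its p was 0.0389 and its adjusted p 1. The FR minus nonFR difference of Psmc2 was 0.77 in B10, 0.29 in P91, 0.031 in B13, -0.16 in B9, -0.36 in B3 and -0.45 in B1. For this interaction 0 of 35 genes were called in limma, and 0.0244% of all features were. At an unadjusted p below 0.05 there was 1 gene of 35, or 2.86%, and 4.7% of all features.

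The other cap subunits form the base scaffold, the ubiquitin receptors and the lid. Of 10 tested, 5 had differences between areas above 0 and 5 below, with a median of -0.011 log2, none called. Psmd4, a ubiquitin receptor of the cap, had both the lowest p between animals of all 35 genes and the largest SD over animals in its group. In B9 its levels were 9.81 and 10.24 in FR arrays and 9.91, 9.43 and 9.99 in nonFR arrays, and in P91 9.43 and 9.62 in FR arrays and 10.06 and 9.75 in nonFR arrays. B1 had 8.70 in the FR array and 8.77 in the nonFR array, B3 had 8.79 and 8.25 in FR arrays and 8.58 and 8.79 in nonFR arrays, and B13 had 8.25 in the FR array and 7.94 in the nonFR array. Every array of B9 and P91 was thus above every array of B1, B3 and B13. B10 reached across both, with 8.92 and 9.17 in FR arrays and 9.78 and 7.76 in nonFR arrays.

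The animal means of Psmd4, 9.90 in B9 and 8.09 in B13 at the ends, spanned 3.49-fold (adjusted p = 0.0156, limma). Psmd4 was not called without B9 or B3. Between areas it ran from 8.25 to 10.24 with a median of 9.04 in FR arrays and from 7.76 to 10.06 with a median of 9.43 in nonFR arrays. The difference was 0.027 (SE 0.19, p = 0.892, limma), and it was -0.13 without the dimmest array. The promoter of Psmd4 is shown because the gene had the lowest p between animals. It lies at chr2:185297152-185297451 on the minus strand (RefSeq, GRCr8), and capitals mark the CCAAT box on each strand, both close to the start of the gene.
Psmd4 promoter: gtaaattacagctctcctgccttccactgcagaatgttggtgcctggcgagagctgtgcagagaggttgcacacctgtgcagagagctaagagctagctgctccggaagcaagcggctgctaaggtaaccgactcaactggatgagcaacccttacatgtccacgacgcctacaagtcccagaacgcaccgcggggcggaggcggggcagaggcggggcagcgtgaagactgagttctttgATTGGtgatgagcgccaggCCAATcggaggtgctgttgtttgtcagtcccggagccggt

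Psmd3, a subunit of the lid, was called as well. B9 had 11.59 and 11.78 in FR arrays and 11.19, 11.32 and 11.85 in nonFR arrays, while B13 had 10.37 in the FR array and 10.15 in the nonFR array. P91 had 10.90 and 11.16 in FR arrays and 11.23 and 11.86 in nonFR arrays, and B10 had 10.41 and 10.61 in FR arrays and 10.74 and 10.02 in nonFR arrays. No array of B10 or B13 reached the lowest array of B9 or P91. The means of 11.57 in B9 and 10.26 in B13 spanned 2.48-fold (adjusted p = 0.0175, limma), and Psmd3 was the only gene of the 35 still called without B3. Without B9 Psmd3 was not called, and its span was 1.03 log2 against 1.31. Its promoter, shown because it holds the antioxidant response core and no CCAAT box, lies at chr10:84139688-84139987 on the plus strand (RefSeq, GRCr8). The capitals mark that core, TGACNNNGC, read here on the opposite strand.
Psmd3 promoter: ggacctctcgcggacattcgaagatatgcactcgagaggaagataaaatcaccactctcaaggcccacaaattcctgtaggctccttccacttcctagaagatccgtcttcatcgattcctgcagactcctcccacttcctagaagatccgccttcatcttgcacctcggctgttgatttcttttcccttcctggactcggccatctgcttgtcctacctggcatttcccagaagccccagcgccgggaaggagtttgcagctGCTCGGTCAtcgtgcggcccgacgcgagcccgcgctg

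Psmd6, another lid subunit, had the lowest p between areas in the group. It ran from 9.14 to 10.17 with a median of 9.55 in FR arrays and from 8.65 to 9.94 with a median of 9.64 in nonFR arrays. The fitted difference was 0.12 (SE 0.13, p = 0.352, limma), and without B10 it was -0.00250. Psmd13, with the lowest difference of all 35 genes, ran from 6.19 to 7.45 in FR arrays and from 6.03 to 8.25 in nonFR arrays. The scaffold subunits Psmd1 and Psmd2 had differences of -0.11 and -0.042.

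The activators bind the ends of the core in place of the cap. All 3 tested genes had differences above 0, with a median of 0.059, none called, and limma called 0 of 3 between animals, with 0 at an unadjusted p below 0.05. Psme1, an interferon-inducible activator subunit, ran from 9.30 to 10.75 with a median of 10.05 in FR arrays and from 9.34 to 10.53 with a median of 9.84 in nonFR arrays. The ranges overlapped, and its difference was 0.20 (SE 0.18, p = 0.275, limma), above 0 in 5 of 6 animals, with 0.92 in B1 as the highest. Psme2, the partner of Psme1 in the same ring, lay near background. It ran from 6.01 to 6.49 in FR arrays and from 5.90 to 6.52 in nonFR arrays, with a difference of 0.059 (SE 0.065), and its adjusted p between animals was 0.207 in limma. With median centring, and without B10, Psme2 was called between animals. Psme4, a large nuclear activator, had a difference of 0.0078 (SE 0.29), the widest interval of the 35. Its animals disagreed, with 1.18 in P91 and 1.01 in B1 but -1.04 in B9 and -0.54 in B13.

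The assembly chaperones, Psmg1, Psmg2, Psmd5 and Psmd9, help build the core or the base of the cap and leave the finished particle. Of the 4, 2 had differences above 0 and 2 below, with a median of -0.030, none called, and 2 were called between animals. Psmg1, which pairs with Psmg2 to start the alpha ring, ran from 9.46 to 10.58 with a median of 9.84 in FR arrays and from 9.65 to 10.32 with a median of 9.99 in nonFR arrays. Its difference was -0.076 (SE 0.087, p = 0.400, limma). Psmg1 was called between animals only without B1.

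Psmd5, a chaperone of the ATPase ring, had the widest span of all 35 genes, 4.78-fold between the means of 8.64 in B10 and 6.38 in B3 (adjusted p = 0.0196, limma). The span rested on its end animals, at 1.53 log2 without B3 and 1.62 without B10 against 2.26 with all, and the call was lost without either of these or B9. In B10 its levels were 8.23 and 9.41 in FR arrays and 7.58 and 9.33 in nonFR arrays, and in B3 6.31 and 6.56 in FR arrays and 6.34 and 6.31 in nonFR arrays. Every array of B3 lay below every array of the other animals. P91 had 6.93 and 7.66 in FR arrays and 6.92 and 7.58 in nonFR arrays, B9 had 6.95 and 7.31 in FR arrays and 7.18, 7.09 and 6.99 in nonFR arrays, and B1 had 7.05 in the FR array and 7.20 in the nonFR array. In B13 the areas lay far apart, with 7.02 in the FR array and 8.97 in the nonFR array. Over all arrays the fitted difference between areas was -0.092 (SE 0.25), and without B13 it was 0.11. The span of Psmd5 ran in an order of its own, since B9 lay above B3 only.

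The promoter of Psmd5 is shown as the called gene with the widest span, and it held neither motif. It lies at chr3:38548441-38548740 on the minus strand (RefSeq, GRCr8).
Psmd5 promoter: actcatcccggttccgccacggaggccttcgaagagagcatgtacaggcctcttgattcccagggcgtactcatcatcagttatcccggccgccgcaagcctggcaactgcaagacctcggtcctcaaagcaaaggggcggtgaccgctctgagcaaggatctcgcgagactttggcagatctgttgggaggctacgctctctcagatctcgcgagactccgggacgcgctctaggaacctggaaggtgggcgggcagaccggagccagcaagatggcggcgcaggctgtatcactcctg
Psmd9, a chaperone that binds an ATPase of the cap, averaged 7.38 in B9 and 6.54 in B1, a 1.79-fold span (adjusted p = 0.0316, limma). Its call was lost without B9, B1 or B3 and with no detection filter or one requiring all arrays, and its span was 0.54 log2 without B9 and 0.53 without B1 against 0.84.

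RefSeq promoters were matched for 36 of the 40 genes, including the 10 called between animals. Each was searched on both strands for the letters TGACNNNGC, the core of the antioxidant response element that NFE2-type factors bind, and for CCAAT, bound by the NF-Y complex. The antioxidant core was found in 8 of 36 promoters or 22.2%, and in 12.1% of 33469 promoters of the same length. The 8 genes were Psma3, Psmb2, Psmb5, Psmb6, Psmd1, Psmd3, Psmd9 and Psme4, of which Psmd3 and Psmd9 were called between animals. In the promoter of Psmb2, counted for both motifs, a match of each overlapped the other. CCAAT was found in 16 of 36 or 44.4%, and in 37.5% of all promoters, and among the 10 called genes in 8. These matches describe the letters in the window only.

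Genes around the proteasome were read from lists of pathway genes. None of them was called between areas in limma, and none had an unadjusted p below 0.05. Of the partners of the particle, 2 of 7 had differences above 0, with a median of -0.029. The lowest p belonged to Zfand5, a ubiquitin-binding stimulator of the proteasome, at 9.09 ± 1.38 in FR arrays (SD, n = 10) and 9.56 ± 1.09 in nonFR arrays (SD, n = 11), with a difference of -0.56 (SE 0.44, p = 0.222, limma). That difference was above 0 in 1 animal, P91, at 1.13, and below 0 in 5, with -2.02 in B10. In slice 2 of B10 the FR array had 6.17 and the nonFR array 10.70. With an animal left out the difference of Zfand5 ran from -0.96 to -0.21. Usp14, a deubiquitinase of the cap, had a difference of -0.38 (SE 0.32). Zfand2a, an arsenite-inducible partner, was the only one of the 7 called between animals. It averaged 10.35 in B13 and 8.65 in B9 (adjusted p = 0.00441, limma), so its ends were those of Psmb7 and Psmd4 turned round. The call of Zfand2a was lost without B9, where its span was 0.90 log2 against 1.70. Txnl1, a thioredoxin of the cap, averaged 8.71 in B10 and 7.59 in B9 and was not called (adjusted p = 0.064, limma). Without P91, B1 or B13 Txnl1 was called, and without B10 Zfand5 and Usp14 were called.

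Of 7 tested regulators of proteasome genes, 5 had differences above 0, with a median of 0.022. Between animals limma called 0 of the 7, with 3 at an unadjusted p below 0.05. Nfe2l2, the antioxidant transcription factor NRF2, averaged 8.39 in B13 and 6.67 in B9 (adjusted p = 0.0565, limma). It was called with the authors' values, with median centring, without background correction and with a filter requiring all arrays. Nfe2l2 was also called without B1, B10 or the dimmest array. Keap1, the adaptor that marks NRF2 for destruction, averaged 7.07 in P91 and 6.20 in B13 (adjusted p = 0.0603, limma). Keap1 was called with median centring and without B1. The NF-Y subunits Nfyb and Nfyc had differences between areas of 0.036 and 0.022, with levels of Nfyb near background. Nfyb had an unadjusted interaction p of 0.0366 and an adjusted one of 1.

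Of 3 genes of ubiquitin activation, 1 was called between animals. Uba6, a ubiquitin-activating enzyme, averaged 7.56 in B13 and 5.95 in P91 (adjusted p = 0.00792, limma). Its call was lost without B9 or B13, and without B13 its span was 0.82 log2 against 1.61. Nedd8, a ubiquitin-like protein, had a difference between areas of 0.091 (SE 0.12) and an unadjusted interaction p of 0.000422, with an adjusted p of 0.217 in limma. With median centring, and without B10, Nedd8 was called between animals. Of 7 genes that deliver substrates, 1 had a difference above 0 and 6 below, with a median of -0.10, and 2 were called between animals. Rad23b, a shuttle that carries ubiquitinated proteins to the cap, averaged 8.11 in B13 and 6.66 in P91 (adjusted p = 0.0436, limma). Its call was lost without P91, B9 or B3, with median centring, with an offset of 50 and with no detection filter. Faf1, an adaptor of the segregase Vcp, averaged 9.55 in B10 and 8.54 in P91 (adjusted p = 0.0479, limma). Its call was lost without P91, B9, B3, B10 or the dimmest array. The call was also lost with median centring, the authors' values, an offset of 50, and no detection filter or one requiring all arrays. Between areas the difference of Faf1 was 0.12 (SE 0.13). Ubqln2, another shuttle, had -0.24 (SE 0.29).

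The immunoproteasome subunits, which replace the catalytic beta subunits in interferon-stimulated cells, took another order over the animals. Psmb8 and Psmb10 had differences between areas of 0.24 (SE 0.28) and 0.16 (SE 0.17), and Psmb9, near background, -0.053 (SE 0.078), none called. All 3 were highest in P91 and lowest in B1, and 0 of 3 were called between animals (1 at an unadjusted p below 0.05), with adjusted p of 0.302 for Psmb8, 0.227 for Psmb9 and 0.115 for Psmb10 in limma. With median centring, where 27.4% of all features were called, all 3 were called, and Psmb8 was also called without the dimmest array.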

How the data were processed

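Total RNA of 21 dentate gyrus areas was hybridised to Illumina rat arrays. One deposited table holds average signal intensity and detection p-value columns per probe and array, per the file headers. The authors' second table holds processed, log2-like values, made with lumi 2.2 per the submitters' processing notes; its log base and transformation are not given in the sources used here, and it served as an alternative only. Of 22523 probes, 720 were 0 throughout and were dropped. Intensities were corrected for background (normal-exponential convolution) with an offset of 16, which compresses folds of dim probes, then quantile-normalised and log2-transformed (neqc, limma 3.58.1, R 4.3.3). Probes detected on at least 10 arrays were kept (8223), 1 per symbol by highest mean (8211 features). Symbols came from the platform annotation. The number of arrays limits the precision.

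FR and nonFR areas were compared in a two-sided limma fit that blocks on animal, and p-values were adjusted by Benjamini-Hochberg over all features (threshold 0.05). F tests compared animals, with the area in the fit, and area by animal. The labels pair areas by animal: deviations from group means correlated by 0.36 on average within a slice (10 pairs), 0.35 between slices of an animal and -0.11 between animals. Slices from one rat are not separate rats, so the test between animals sets them against the spread of areas within an animal. The fits were tried on simulated data with independent noise on each array. Such data do not hold the correlation within slices and animals, so that run cannot speak to it.

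Members, lists and tests were chosen with earlier results of these data known. Values in full are given, in each structural group, for the genes with the lowest p between areas, the lowest between animals and the largest SD over animals, for Psmb5 to Psmb10, Psme1 and Psme2, and for the 2 pathway genes per list with the lowest p in each comparison. Other genes with values were added after these were seen. Other scalings, filters, offsets and blocks, and left-out animals and arrays, were alternatives.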

Additional observations from a re-analysis of the deposited data

Results flagged for a closer look

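The FR levels, animal means and FR minus nonFR differences per animal of 21 proteasome genes, and their median difference, made 64 sets that were examined for a value far from the others, of which chance would give about 3.2. There were 2 such values, both in B13, which has 1 FR and 1 nonFR array. The FR minus nonFR difference of the chaperone Psmd5 was -1.954 log2 in B13, and the next lowest was -0.1559 in B1. The difference of the alpha subunit Psma1 was -0.5657 in B13, and the next lowest was -0.1131 in B3.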

How the results depend on the processing

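No tested proteasome gene was called between areas, or for the interaction, under any alternative run. The count above 0, 24 of 35, ran from 11 (without B10) to 25 with an animal left out and was 11 with array weights and 29 with median centring, where the median difference was 0.080 log2. The 10 calls between animals, beside 13.4% of all features, became 16 with median centring, where 27.4% of all features were called. That run shared 9 with the 10 and shifted the median of all genes by up to 0.18 log2 in an animal. With no detection filter, which tested more features, 5 of 40 were called and 3.33% of all features. FR arrays alone gave 0 calls, beside 0% of all features, and nonFR arrays alone 0, beside 0.0609%. With an animal left out the calls ran from 0 (without B9) to 13 (without B1), beside 2.28% and 16.2% of all features. The median SD over animals, 0.287, was 0.258 without background correction, 0.479 with median centring, 0.25 with the authors' values and 0.296 to 0.3165 with an animal left out. The cause of these shifts was not tested.

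The areas are paired by animal in the fit. Without that replicate block Psmd4 reversed to -0.044, and with the slice as replicate block to -0.016; the block changed no call. Array weights reversed Psmb1 (-0.087), Psmc5 (-0.028), Psmd6 (-0.0073), Psmd4 (-0.022), Psme2 (-0.0064), Psme4 (-0.20), Psmb5 (-0.11), Nedd8 (-0.055) and Psma2 (-0.066). Leaving out the dimmest array reversed Psmb1 (-0.010), Psmb7 (-0.056) and Psmd4 (-0.13), and animal means reversed Nfyc (-0.0072). With an animal left out, differences between areas ran from -0.17 to 0.33 for Psma6, -0.020 to 0.21 for Psmb1, -0.0025 to 0.22 for Psmd6, -0.039 to 0.12 for Psmd4, -0.0014 to 0.096 for Psme2, -0.27 to 0.32 for Psme4, -0.20 to 0.11 for Psmd5, -0.027 to 0.14 for Psmb5, -0.013 to 0.065 for Nfyb, -0.0061 to 0.044 for Nfyc, -0.093 to 0.20 for Nedd8 and -0.0083 to 0.28 for Psmb10. None of these differences was called in any setting. Over the alternative runs, 59 single-gene calls between animals were lost and 28 gained. Only genes called in the main run could lose a call. The 1170 values compared also held differences between areas, medians and genes not called in the main run, so 59 is not a share of them. Dim genes such as Psma1, Psmd8 and Psme2 are compressed toward background.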
